A study of Mus musculus with 194 samples.

Results

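The endoplasmic reticulum (ER) chaperones and unfolded protein response genes examined here were 10 of the 19363 genes in the count table, chosen by name: Hspa5, Hsp90b1, Calr, Canx, Pdia3, Pdia4, Pdia6, Xbp1, Atf4 and Ddit3. They were followed in 194 libraries of 3′-RNA-seq, a method that counts the tail end of each transcript, from the dorsal striatum (DS), nucleus accumbens (NAc), limbic cortex (LCtx), amygdala (Amy) and lateral hypothalamus (LH) of male C57BL/6OLAHSD mice that were 6 to 7 weeks old at the start. Mice were habituated to saline for 3 days, and cocaine was given intraperitoneally at 20 mg/kg. Acute mice were taken cocaine-naive (0 hr) or 1, 2 or 4 hr after their only dose. Repeated mice, which the labels call Chronic, were taken 24 hr after the last of 4 daily doses (0 hr) or 1, 2 or 4 hr after dose 5. Challenge mice had the repeated course, 21 days of abstinence and then no further dose (0 hr) or 1 new dose. Mice of 0 hr were taken straight from the home cage, so injection and handling that day change together with cocaine in each time course. The labels give no saline group of the same age and handling history beside the repeated and challenge mice, and days since the start of the experiment, cohort and cocaine experience change together.

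Secretory and membrane proteins fold in the ER, where Hspa5 (BiP), an Hsp70-type chaperone, and Hsp90b1 (GRP94), an Hsp90-type chaperone, bind unfolded chains. Calr (calreticulin, soluble) and Canx (calnexin, membrane-bound) hold glycoproteins, working with Pdia3 (ERp57), while Pdia4 and Pdia6 are further disulfide isomerases. When unfolded protein builds up, the sensors ATF6, IRE1 and PERK raise chaperone transcription, IRE1 through splicing of Xbp1 mRNA and PERK through translation of Atf4 mRNA, whose protein in turn raises Ddit3 (CHOP), a stress transcription factor. Neurons carry a heavy secretory and membrane load, and Calr is also a main calcium buffer of the ER. Total read counts at the 3′ end cannot tell spliced from unspliced Xbp1 mRNA, and Atf4 protein is set largely by translation, so the counts below are RNA levels only.

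ATF6 and XBP1 act through the ER stress response element (ERSE), the letters CCAAT, then 9 bases of any kind, then CCACG. All 10 members had 1 promoter in RefSeq's GRCm38.p6 set, running from 250 bases before the start to 50 after it. An exact ERSE on either strand was found in 39 of 32851 promoters, or 0.119%, and in 5 of the 10 members, namely Hspa5, Hsp90b1, Calr, Canx and Pdia6. The 250 bases before the start of these 5 are printed because they hold the element that the members are known for, with the matches in capitals.
Hspa5, chr2:34771840-34772089, plus strand: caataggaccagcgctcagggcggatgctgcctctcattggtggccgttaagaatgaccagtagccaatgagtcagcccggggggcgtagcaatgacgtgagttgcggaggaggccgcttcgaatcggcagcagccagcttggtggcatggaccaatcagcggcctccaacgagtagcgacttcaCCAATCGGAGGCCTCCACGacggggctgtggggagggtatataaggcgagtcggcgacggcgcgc
Hsp90b1, chr10:86705445-86705694, minus strand: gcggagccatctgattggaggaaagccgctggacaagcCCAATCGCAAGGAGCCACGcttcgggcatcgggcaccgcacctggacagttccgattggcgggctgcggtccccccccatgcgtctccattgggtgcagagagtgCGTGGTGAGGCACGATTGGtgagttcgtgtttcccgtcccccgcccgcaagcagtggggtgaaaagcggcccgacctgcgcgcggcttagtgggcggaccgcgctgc
Calr, chr8:84846932-84847181, minus strand: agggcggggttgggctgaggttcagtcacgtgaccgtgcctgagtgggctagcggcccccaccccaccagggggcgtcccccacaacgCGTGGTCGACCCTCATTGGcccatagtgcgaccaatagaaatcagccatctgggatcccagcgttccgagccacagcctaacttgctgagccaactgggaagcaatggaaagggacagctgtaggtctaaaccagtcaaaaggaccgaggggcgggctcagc
Canx, chr11:50325674-50325923, minus strand: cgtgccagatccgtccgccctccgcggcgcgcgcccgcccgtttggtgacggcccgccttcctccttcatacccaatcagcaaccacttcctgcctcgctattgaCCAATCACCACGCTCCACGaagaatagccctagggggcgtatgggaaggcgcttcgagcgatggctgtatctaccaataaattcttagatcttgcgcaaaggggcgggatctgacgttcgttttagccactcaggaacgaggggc
Pdia6, chr12:17266339-17266588, plus strand: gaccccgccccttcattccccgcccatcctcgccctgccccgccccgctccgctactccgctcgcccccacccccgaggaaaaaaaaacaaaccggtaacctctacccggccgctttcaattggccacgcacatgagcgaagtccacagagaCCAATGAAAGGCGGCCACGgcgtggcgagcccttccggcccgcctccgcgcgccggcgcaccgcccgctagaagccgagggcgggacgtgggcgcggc
The match in Hspa5 ended 46 bases before the start and that in Pdia6 79 bases before it. Hsp90b1 carried 2 matches, 1 in each orientation, ending 193 and 88 bases before the start, and Canx carried 1 that ended 126 bases before it. The Calr match lay in reverse orientation, 143 bases before the start. A further 3 motifs were searched on both strands. ERSE-II (ATTGGNCCACG, which shares CCACG with the ERSE) was in 0.0365% of promoters, the XBP1-type element TGACGTGG in 0.676% and the ATF4-type element TGATGNAA in 3.97%, and no member had any of them in this window. Pdia3, Pdia4, Xbp1, Atf4 and Ddit3 had no exact match to any of these letters.

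In GENCODE M21 on GRCm38, Hspa5 (ENSMUSG00000026864) spans chr2:34771970-34777547 on the plus strand, Calr (ENSMUSG00000003814) chr8:84841850-84846934 on the minus strand, Pdia4 (ENSMUSG00000025823) chr6:47796141-47813430 on the minus strand and Atf4 (ENSMUSG00000042406) chr15:80255184-80257541 on the plus strand. The 3′ ends of Hsp90b1, Pdia6 and Ddit3, where the reads of this method fall, are overlapped by a gene on the other strand (1810014B01Rik, Atp6v1c2 and Mars), and whether the counting used strand is not given in the sources used here. Mars lay at 12.9 to 34.9 CPM (counts-per-million) in the DS libraries compared below and Atp6v1c2 at 0.59 to 9.23 CPM, and neither passed the test in any of the comparisons between experiences in which it was tested.

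Library totals ran from 1193306 to 10367769 counts over 9 sequencing runs, and acute, repeated and challenge mice were mostly sequenced in different runs. In the DS, 24 mice, 8 of each experience and 2 at each time, were sequenced again together in 1 run, called the shared run here, and the comparisons between experiences rest on it. Its totals were 2096787 to 2704694 counts for acute, 1689860 to 2170571 for repeated and 1269391 to 1805910 for challenge libraries. Each replicate was a separate mouse. A gene was called when its adjusted p (edgeR's quasi-likelihood test, Benjamini-Hochberg over all genes tested) was below 0.05 and its fold change over 1.2, which is 0.263 on the log2 scale. Levels are CPM of all counts, and log2 changes are fitted values ± SE.

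Challenge mice had more Hspa5, Calr, Pdia4, Pdia6 and Ddit3 RNA in the DS than acute mice of the shared run. These 5 of the 10 members, 4 of the 7 chaperones among them, were called, against 17.8% of the 11210 genes tested, 1095 of them higher and 903 lower. The members' median log2 change was 0.32, beside 0.01 over all genes. Hspa5 lay between 233 and 340.2 CPM (median 286) in the 8 acute libraries and between 305 and 690.1 (median 442) in the 8 challenge libraries. All challenge libraries but 2 were above the highest acute library, and the log2 change was 0.61 ± 0.093 (adjusted p = 3.85e-07). Calr was the 1 member whose groups did not overlap, a pattern shared by 5.21% of genes, with 355 to 477 CPM (median 417) in acute and 479 to 663 (median 577) in challenge mice. Its change was 0.50 ± 0.053 (adjusted p = 1.08e-11).

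Pdia4 ran from 23.4 to 32.0 CPM (median 25.7) in acute mice and from 18.5 to 72.6 (median 47.5) in challenge mice, where 7 of 8 libraries exceeded every acute library and 1, taken at 1 hr, was below them all. Its log2 change of 0.90 ± 0.16 (adjusted p = 1.71e-05) rests on 30 to 111 counts a library. Pdia6 rose by 0.39 ± 0.11 (adjusted p = 0.00512), from 83.9 to 96.1 CPM (median 90.2) to 73.3 to 183 CPM (median 108), with 1 challenge library below the acute range. Pdia3, the partner of the glycoprotein chaperones, was not called, at 51.1 to 77.4 CPM (median 71.6) against 58.3 to 101 (median 79.1) and a change of 0.26 ± 0.12 (adjusted p = 0.105).

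Among the transcription factors Ddit3 was called. It lay at 50.2 to 81.1 CPM (median 60.2) in acute and 68.1 to 133 (median 106) in challenge mice, 1 challenge library falling inside the acute range, and the change was 0.71 ± 0.11 (adjusted p = 6.18e-07). Xbp1 changed by 0.16 ± 0.11 (adjusted p = 0.298) and Atf4 by 0.26 ± 0.11 (adjusted p = 0.0721). The other major ER chaperones were not called, Hsp90b1 with a difference of 0.06 ± 0.069 (adjusted p = 0.576) and Canx with 0.09 ± 0.051 (adjusted p = 0.242). Thus of the 5 members with an ERSE 3 were called (Hspa5, Calr and Pdia6), and of the 5 without one 2 were (Pdia4 and Ddit3).

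**Figure D1:**
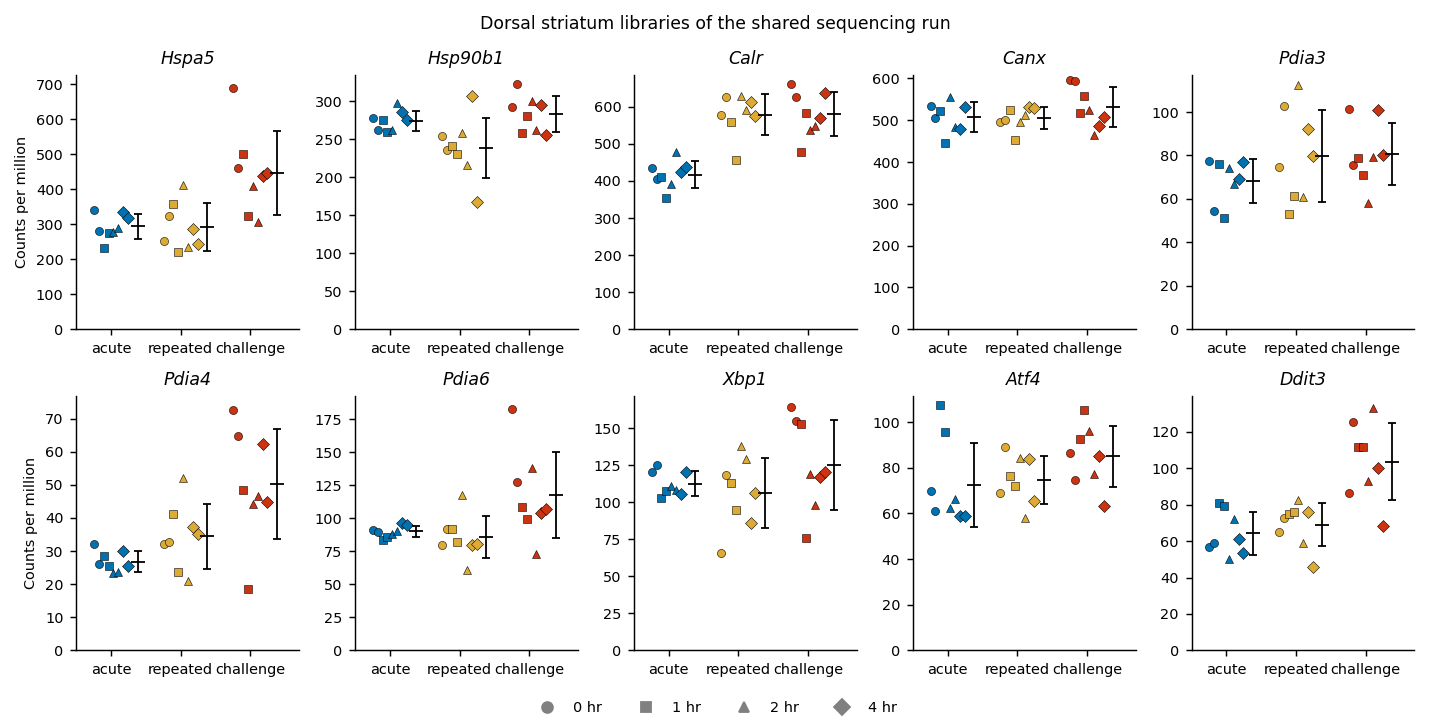
CPM of the 10 members in the 24 dorsal striatum libraries of the shared run, by cocaine experience on the horizontal axis, with 1 point a mouse, its shape giving the hours after cocaine, and mean ± SD of 8 mice beside each group. Calr points of acute mice lie below all those of challenge mice, Hspa5 reaches 690.1 at 0 hr of challenge, the Canx ranges overlap, and 7 of 8 repeated Hsp90b1 libraries lie below every acute library and 1 above them all.

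The differences were already present in mice that had no cocaine that day. At 0 hr, 5 members were called between abstinent challenge and naive acute mice, with 2 mice each, against 3.48% of 12297 genes. They were again Hspa5, Calr, Pdia4, Pdia6 and Ddit3. Hspa5 stood at 690.1 and 460.2 CPM against 340.2 and 280.6, a log2 difference of 0.91 ± 0.18 (adjusted p = 0.00101). Pdia4 stood at 72.6 and 64.6 CPM against 32.0 and 26.0, a difference of 1.26 ± 0.32 (adjusted p = 0.0155). Pdia6 differed by 0.80 ± 0.21 (adjusted p = 0.0198), Ddit3 by 0.88 ± 0.23 (adjusted p = 0.0181) and Calr by 0.63 ± 0.11 (adjusted p = 8.2e-05). Both challenge values were above both acute values for each of these genes. In the same 0 hr comparison 5 of 7 oligodendrocyte markers were called lower (median log2 change -0.59). Called higher were 1 of 4 blood cell, 1 of 7 endothelial and 1 of 8 microglia markers, and 4 of 12 cytosolic heat shock genes. Of 9 striatal projection neuron markers 1 was called higher and 2 lower, and of 7 astrocyte markers 1 in each direction. Of 2 lateral hypothalamus markers tested 1 was called lower. The part of all these genes in the members' differences was not tested. In the shared run, edgeR detected no member whose difference between experiences depended on time. The smallest p was 0.0328, for Hspa5 (adjusted p = 0.907), with 2 mice at each time of an experience.

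Between repeated and acute mice of the shared run, only Calr was called among the members, against 14.3% of genes. It lay at 456 to 630.5 CPM (median 585) in repeated mice, 7 of 8 of them above every acute mouse, and rose by 0.48 ± 0.052 (adjusted p = 5.31e-11). Hsp90b1 had an adjusted p of 0.0436 with a difference of -0.19 ± 0.069, under the fold limit, at 167 to 306 CPM in repeated and 259 to 297 in acute mice. Of its 8 repeated libraries 7 lay below every acute library and 1 above them all, and without the high library, taken at 4 hr (replicate 3), Hsp90b1 was called. Hspa5 differed by 0.00 ± 0.094 (adjusted p = 0.985), and its repeated libraries ran from 219.5 to 412 CPM. At 0 hr again only Calr was called, by 0.52 ± 0.11 (adjusted p = 0.00225), against 1.86% of genes. In the comparison over all times, 4 of 8 microglia markers were called higher and 1 lower, with sums of 855 to 949 CPM in acute and 887 to 1053 in repeated mice, and 2 of 7 endothelial markers were called higher, with sums of 196 to 313 and 274 to 400.5 CPM. The oligodendrocyte sums were lower in repeated mice with ranges apart, at 11626.5 to 13259 and 9266 to 11391 CPM (1 of 7 called lower). So were the lateral hypothalamus sums, at 16.3 to 26.0 and 2.85 to 12.1 CPM (1 of 2 tested called lower). Of 7 neuron markers 2 were called higher, and 1 striatal projection neuron and 1 astrocyte marker were called in each direction. The part of these markers in the Calr difference was not tested.

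Set directly against repeated mice, challenge mice of the shared run had 4 members called, all higher, where 4.05% of genes were called. Hspa5 was higher by 0.61 ± 0.095 (adjusted p = 6.65e-06), Ddit3 by 0.59 ± 0.11 (adjusted p = 0.000236), Pdia6 by 0.45 ± 0.11 (adjusted p = 0.00532) and Pdia4 by 0.52 ± 0.16 (adjusted p = 0.0436). Calr was not called between them, at 0.02 ± 0.053 (adjusted p = 0.911), and Hsp90b1 was higher by 0.25 ± 0.070 (adjusted p = 0.0184), just under the fold limit. No member's groups were apart in this comparison, and those of 0.294% of genes were. The Pdia4 call was lost in 14 of the 24 fits that left out 1 library, with log2 changes from 0.45 to 0.67.

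The same comparison could be made in mice that were not in the shared run, 9 repeated and 7 challenge mice of the DS sequenced together in another run, the second run. There 4 members were called, all higher in challenge mice, against 10.2% of 11749 genes. Hspa5 rose from 255 to 461 CPM (median 359) to 391 to 921 CPM (median 554), a log2 change of 0.72 ± 0.087 (adjusted p = 2.6e-08). Pdia6 was the 1 member whose groups were apart, as were those of 2.49% of genes, with 94.7 to 115 CPM (median 106) in repeated and 124 to 219 (median 150) in challenge mice. Its change was 0.53 ± 0.076 (adjusted p = 1.22e-06), and that of Pdia4 was 0.44 ± 0.11 (adjusted p = 0.0034). Calr was called as well, by 0.31 ± 0.067 (adjusted p = 0.000773), but not without the 2 hr or the 4 hr challenge library of replicate 3, when its change was 0.24 or 0.26. Xbp1 (0.26 ± 0.069, adjusted p = 0.00628) and Ddit3 (0.25 ± 0.067, adjusted p = 0.00709) passed the p but not the fold limit. Hspa5, Pdia4 and Pdia6 were therefore called higher after challenge than after repeated cocaine in separate mice of separate runs. The challenge mice of both runs came from the same cohort, however, and the repeated mice from a different cohort in each run. Anything particular to the challenge cohort would recur in both comparisons.

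**Figure D2:**
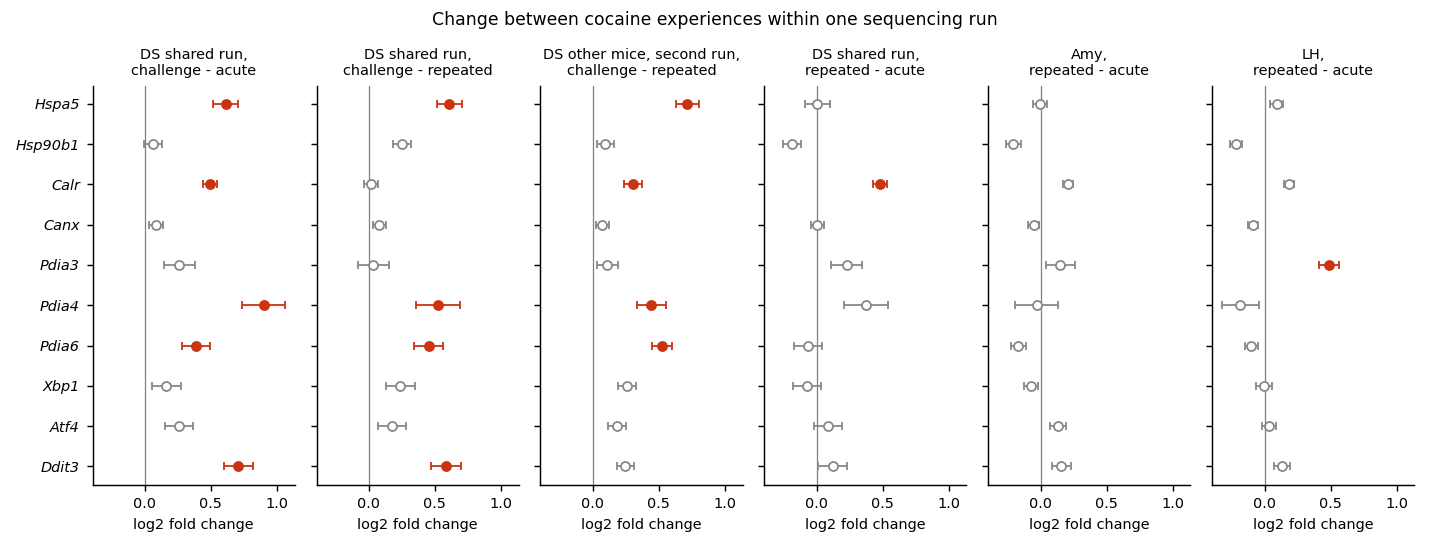
Fitted log2 fold change ± SE of each member (rows) in 6 comparisons made within 1 sequencing run, filled red where called (adjusted p below 0.05 and fold over 1.2). The filled points are 5, 4, 4, 1, 0 and 1 from left to right, and Hspa5, Pdia4 and Pdia6 are filled in the 3 panels with challenge mice.

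Other ER genes were read from fixed lists, whose counts carry no test of their own. Of 11 further ER chaperones and co-chaperones, 4 rose and 1 fell between acute and challenge mice of the shared run, where 17.8% of genes were called, with a median log2 change of 0.20. Sdf2l1, a BiP-associated protein, changed by 1.06 ± 0.20 (adjusted p = 3.55e-05), Manf, a secreted ER stress factor, by 0.56 ± 0.13 (adjusted p = 0.000883) and Hyou1, an ER Hsp70-like nucleotide exchange factor, by 0.54 ± 0.16 (adjusted p = 0.0102). Dnajb11 rose by 0.41 and Dnajb9, a BiP cofactor, fell by 0.37 on the log2 scale. Against repeated mice none of the 11 was called in the shared run (4.05% of genes) and 3 were in the second run (10.2% of genes), namely Manf at 0.54 ± 0.093 (adjusted p = 3.12e-05), Sdf2l1 at 0.53 ± 0.16 (adjusted p = 0.0169) and Dnajc3 at 0.33 ± 0.085 (adjusted p = 0.0044).

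Of 9 genes of disulfide bond formation none was called in any of the 6 comparisons, where 4.05% to 17.8% of genes were. Of the 5 tested among 6 sensors and their proteases, 2 fell between acute and challenge mice, Mbtps1 (the site-1 protease that cuts ATF6) at -0.77 on the log2 scale (adjusted p = 1.06e-08) and Mbtps2 (the site-2 protease) at -0.79 (adjusted p = 0.0025). Of 13 genes of ER-associated degradation 1 rose and 1, Edem1, fell by 0.80 on the log2 scale (adjusted p = 0.0134). Of 10 genes of N-glycan processing 2 rose and 1 fell, and Dad1, a subunit of the oligosaccharyltransferase, changed by 0.59 ± 0.062 (adjusted p = 8.21e-12). Of 17 tested among 20 ATF4 and CHOP target genes none was called between acute and challenge mice, although Ddit3 itself was. Of 12 tested among 13 ER translocation genes, 2 rose. Between repeated and challenge mice of the shared run, where 4.05% of genes were called, Sec62, a translocation subunit, was higher in challenge mice by 0.39 ± 0.062 (adjusted p = 1.11e-05), while Ddit4, a stress-induced inhibitor of mTORC1, fell by 0.43 and Mbtps1 fell by 0.42 on the log2 scale. Apart from those so given, the counts of these lists are for acute against challenge mice and stand beside 17.8% of all genes.

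Some of these genes differed between repeated and acute mice as well. Of the 17 ATF4 and CHOP target genes tested, 1 was higher in repeated mice of the shared run (14.3% of genes called). In the Amy 3 were higher and 1 was lower (9.29% of genes), and for the LH those counts were 2 and 1 (4.84%). In the shared run Sdf2l1 was higher in repeated mice by 0.92 ± 0.20 (adjusted p = 0.000353), Ddit4 by 0.49 ± 0.11 (adjusted p = 0.000629) and Dad1 by 0.44 ± 0.062 (adjusted p = 7.18e-08), while Edem1, Sec63 and Mbtps1 fell by 0.72, 0.36 and 0.35 on the log2 scale. Ddit4 was higher in repeated mice of the Amy, by 0.37 ± 0.077 (adjusted p = 0.00063), and of the LH, by 0.39 ± 0.080 (adjusted p = 0.00116). Sesn2, another ATF4 target, was higher by 0.38 ± 0.14 in the Amy (adjusted p = 0.0468) and by 0.44 ± 0.14 in the LH (adjusted p = 0.0393), and Slc7a11, the cystine transporter, fell by 0.36 and 0.57 on the log2 scale. Prkcsh, a glucosidase subunit, was higher in the Amy by 0.30 ± 0.052 (adjusted p = 7.31e-05), where Mbtps1 fell by 0.35 and the signal peptidase subunit Spcs2 fell by 0.29. In the LH Spcs3 fell by 0.36 and Spcs2 by 0.28.

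Cytosolic heat shock genes, which answer to a separate stress pathway, moved too. Of 11 tested, 3 rose between acute and challenge mice, where 17.8% of genes were called, and 6 between repeated and challenge mice of the shared run, where 4.05% were. In the second run 8 of 12 rose, where 10.2% of genes were called. Hsph1 changed by 0.62 ± 0.062 (adjusted p = 1.04e-12) and Hspa8, the constitutive cytosolic Hsp70, by 0.59 ± 0.059 (adjusted p = 1.72e-12) between acute and challenge mice of the shared run. Over its 24 libraries, 9780 genes were compared with the mean of the 7 chaperones by Pearson's r of CPM on the log2 scale. The most alike were Hsph1 (r = 0.888), Cct5 (0.842), Hspa8 (0.84), Hyou1 (0.818) and Hmgn1 (0.798). These libraries share a run and differ in depth and in experience. No term for experience was used, so differences between the experiences enter r. Among the members, Hspa5 followed the mean of the other chaperones most closely (r = 0.86), then Pdia4 (0.785) and Pdia6 (0.751), and Hsp90b1 least of the 7 (0.341).

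Markers of other cells moved with challenge as well. The summed level of 7 oligodendrocyte markers was 11626 to 13259 CPM in acute, 9266 to 11391 in repeated and 7075 to 10306 in challenge mice of the shared run, and 6 of the 7 fell between acute and challenge mice, where 17.8% of genes were called. Between repeated and challenge mice 4 of the 7 fell in the shared run (4.05% of genes) and 7 of 7 in the second run (10.2%). Of 8 blood cell markers 4 could be tested, and all 4 rose between acute and challenge mice, while their sum went from 267 to 348 CPM to 337 to 819 CPM, with Ngp at 0 in every repeated and challenge library of the shared run. Between repeated and challenge mice 2 of the 4 rose in the shared run and 2 of 4 in the second run. The summed neuron markers were lower in challenge mice with ranges apart, at 4830 to 5134 CPM in acute and 4565 to 4808 in challenge mice (1 of 7 called higher and 1 lower), and so were the astrocyte markers, at 4224 to 4530 and 3511 to 4045 CPM (1 of 7 called in each direction). In the second run the astrocyte sum was 3567 to 3930 CPM in repeated and 3323 to 3486 in challenge mice, and 3 of 9 striatal projection neuron markers fell. The lateral hypothalamus sum there was 6.32 to 12.9 CPM in repeated and 14.9 to 37.0 in challenge mice (1 of 2 tested markers called higher). Of 3 cortical projection neuron markers tested 1 was called higher. The part of these lists in the member calls was not tested. In the shared run the striatal sums overlapped, at 13917 to 15269 CPM in acute and 13819 to 15027 in challenge mice, with 2 of 9 markers called in each direction. In dissected tissue fewer cells of a type and less RNA per cell cannot be told apart, and the part of oligodendrocyte, astrocyte, neuron or blood RNA and of depth in the chaperone results was not tested, except that thinning every library to the smallest total left the 5 members called and added Atf4.

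Acute and repeated mice also shared a run in the Amy and in the LH, with 8 libraries a group. In the Amy no member was called, against 9.29% of genes, by edgeR at an adjusted p of 0.05 and a fold of 1.2. By unadjusted p, 5 members were below 0.05, and DESeq2 called none. Calr was higher in repeated mice by 0.21 ± 0.040 (adjusted p = 0.000268), at 497 to 610.3 CPM (median 575) in acute and 569.9 to 714 (median 644) in repeated mice, below the fold limit. Hsp90b1 was lower, at -0.21 ± 0.057 (adjusted p = 0.00906), and so was Pdia6, at -0.17 ± 0.057 (adjusted p = 0.0323), also below it. The 9 striatal projection neuron markers all fell in the repeated Amy samples, from 1377 to 1992 CPM in sum to 863 to 1447. The cortical projection neuron sum was higher in them with ranges apart, at 2155 to 2580 CPM in acute and 2877 to 3098 in repeated mice, with 2 of 5 tested markers called higher, and 2 of 4 blood cell and 2 of 7 endothelial markers were called higher. The part of these markers in the small differences was not tested.

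In the LH, Pdia3 was the 1 member called, against 4.84% of genes. It was higher in repeated mice by 0.49 ± 0.078 (adjusted p = 3.42e-05), at 31.9 to 48.1 CPM (median 38.7) in acute and 45.8 to 59.2 (median 54.8) in repeated mice, ranges that met only at their edges. Calr was higher by 0.18 ± 0.037 (adjusted p = 0.000955) and Hsp90b1 lower, at -0.22 ± 0.046 (adjusted p = 0.00142), both under the fold limit. Of the marker lists in the LH, 2 of 8 striatal and 2 of 5 cortical projection neuron markers tested were called lower, as was 1 of 4 choroid plexus markers, and 1 of 7 endothelial and 1 of 8 microglia markers were called higher. Astrocyte markers had 1 of 7 called in each direction. The summed levels overlapped, at 609 to 770.1 and 474 to 715 CPM for the striatal, 419.5 to 654 and 394 to 599 for the cortical and 220.2 to 300.01 and 247 to 327 for the endothelial list, in acute and repeated mice, and their part in the Pdia3 difference was not tested. The DS, Amy and LH comparisons share mice, since the 8 repeated mice were the same in all 3, and the 8 acute mice the same in the Amy and LH, so the values of Calr and Hsp90b1 in the 3 structures are not separate evidence. A difference between the changes in the LH and in the Amy was not detected for any member at an adjusted p of 0.05, and for Pdia3 it was 0.34 ± 0.14 (adjusted p = 0.361), or 0.35 ± 0.14 (adjusted p = 0.266) with the mouse as a block.

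In the hours after cocaine 1 member, Atf4, was called over time in the DS. In acute mice it went from 77.2 to 100.7 CPM (median 80.9, 4 mice) at 0 hr to 104 to 112 (median 107) at 1 hr and back to 74.0 to 84.5 (median 80.1) at 4 hr. No 0 hr mouse reached the 1 hr range. The change over time passed the test (log2 change at 1 hr 0.38 ± 0.093, adjusted p for any time 0.00166), where 2.62% of genes were called. In repeated mice Atf4 was 71.6 to 89.3 CPM at 0 hr and 96.8 to 103 at 1 hr, a change of 0.37 ± 0.094 (adjusted p for any time 0.0377), where 0.480% of genes were called. The contrast of 1 hr with 0 hr by itself called no member in repeated mice, and 31 of 12918 genes higher and 3 lower. In challenge mice Atf4 was 77.4 to 85.3 CPM (3 mice) and 101 to 116 (4 mice), a change of 0.40 ± 0.097 (adjusted p for any time 0.023), where 0.673% were called. The repeated and challenge mice of these courses were sequenced in a run other than that of the acute mice, and a difference in time course between the histories was not detected (edgeR, adjusted p = 0.997).

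The calls of Atf4 in repeated and challenge mice were near the limit. Leaving out the libraries of replicate number 1, 2, 3 or 4 in turn ended both, with adjusted p up to 0.468 and 0.393, while the log2 change kept to 0.35 to 0.44 and the acute call held throughout. The 2 repeated mice of 1 hr that had a library in each of 2 runs stood at 102 and 103 CPM in their own run but 76.2 and 72.2 in the shared run, where the 2 repeated mice of 0 hr had 69 and 89.2. In the shared run the 1 hr mice stood at 107 and 95.5 CPM after acute cocaine, against 69.98 and 60.9 at 0 hr. Ddit3, a target of ATF4, had its highest mean at 1 hr in acute mice too (131 CPM against 104 at 0 hr) but was not called (adjusted p = 0.147). None of the other members was called over time in the DS, and DESeq2 named Atf4 alone in each of the 3 courses.

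**Figure D3:**
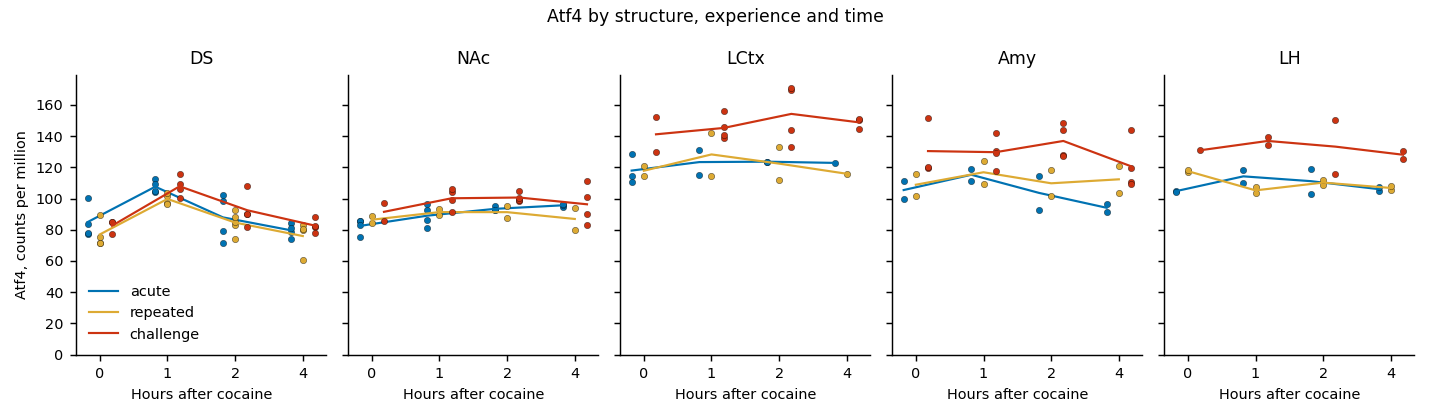
Atf4 in CPM against hours after cocaine in the 5 structures, 1 point a mouse and lines through group means. In the DS every 1 hr mean is above the 0 hr mean (108 against 84.9 acute, 99.8 against 77.0 repeated, 108 against 82.6 challenge), and in the other structures no change of Atf4 over time was called.

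In the NAc, the Amy and the challenge LCtx no member was called over time by edgeR or DESeq2. The share of genes called was 0.185% in the NAc after acute, 0.0463% after repeated and 0.0925% after challenge cocaine, 0.0744% in the LCtx after challenge, and 0.0853%, 0.0233% and 0.109% in the Amy after acute, repeated and challenge cocaine. Across these 7 courses 4 of 70 tests of a member had an unadjusted p below 0.05. The acute and repeated LCtx courses, with 1 mouse at 4 hr, and the LH courses, with 1 or 2 mice a time, had no member called by edgeR either. In them 0.297% and 0.0967% of genes were called in the LCtx after acute and repeated cocaine, and 0.0529%, 0.0302% and 0% in the LH after acute, repeated and challenge cocaine. By edgeR's unadjusted p, 932 of the 13243 genes tested in the LH challenge course were below 0.05. Across these 5 courses 2 of 50 tests of a member had an unadjusted p below 0.05, namely Calr (adjusted p = 0.707, edgeR) and Canx (adjusted p = 0.642, edgeR) in the LH after challenge. Atf4 in acute NAc mice had medians of 84.4, 89.4, 92.8 and 96.1 CPM at 0, 1, 2 and 4 hr (adjusted p = 1.00).

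Levels also differed between structures after challenge, where LCtx (13 libraries), NAc (14), Amy (15) and LH (7) shared 2 runs. The 49 libraries came from 15 mice, 6 of them in all 4 structures, and the fit held structure, time and run but no term for the mouse. By a test over the 4 structures 6 of 10 members were called, but so were 79.0% of the 12657 genes. With the mouse as a block that test called 5 members, all of these but Hspa5. Atf4 ran from LCtx (130 to 171 CPM, median 146) through LH (116 to 151, median 131) and Amy (109 to 152, median 128) to NAc (82.9 to 111, median 99.1). LH and Amy did not differ in it beyond their spread (0.02 ± 0.058, adjusted p = 0.782, or 0.676 with the mouse as a block), and LCtx exceeded NAc, with ranges apart, by 0.61 ± 0.052 (adjusted p = 1.59e-17).

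Ddit3 had a different order. It was highest in the NAc (87.9 to 126 CPM, median 110) and fell through LCtx (median 93.5) and LH (85.8) to Amy (59.6 to 96.6, median 77.5), with a NAc to Amy difference of 0.55 ± 0.053 (adjusted p = 7.37e-15), while LH and Amy were not told apart in it (adjusted p = 0.0643, or 0.0462 with a fold under 1.2 with the mouse as a block). Canx was highest in LH (489 to 669 CPM, median 604) and lowest in LCtx (365 to 464, median 419), a difference of 0.38 on the log2 scale. Xbp1 was lower in Amy than in LH by 0.39 ± 0.078 (adjusted p = 1.43e-05). Calr was higher in LCtx than in LH by 0.35 ± 0.067 (adjusted p = 3.59e-06), and Hspa5 higher in LH than in Amy by 0.28 ± 0.085 (adjusted p = 0.0039), a call that DESeq2 did not make for the 4 structures and that was lost with the mouse as a block, where the difference was 0.22 ± 0.059. Pdia3, Pdia4, Pdia6 and Hsp90b1 were not called over the 4 structures, though with the mouse as a block Pdia4 was called as a pair, higher in NAc than in Amy by 0.27 ± 0.11 (adjusted p = 0.0347). The summed oligodendrocyte markers of these challenge libraries were 1347 to 1815 CPM in LCtx, 3784 to 6716 in NAc, 4518 to 5452 in Amy and 12939 to 15532 in LH, and their part in the order of the members was not tested. The DS was not in these runs, so its levels were not compared with the rest.

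**Figure D4:**
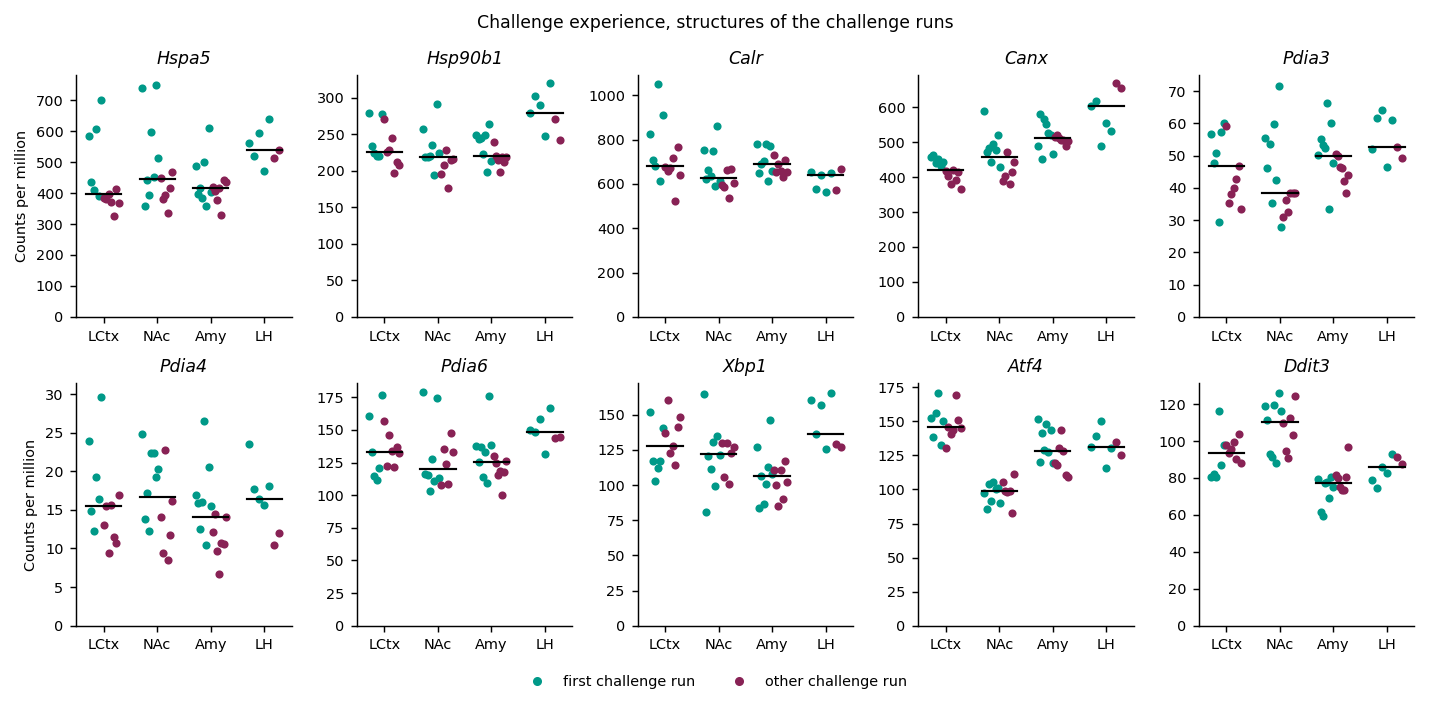
CPM of each member in the challenge libraries of LCtx, NAc, Amy and LH, 1 point a library, colored by run, with a line at the median. Atf4 points of the NAc (82.9 to 111) lie below those of the LCtx (130 to 171), and Ddit3 is highest in the NAc.

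How far these genes move between libraries of the same mouse was measured in the 24 DS mice with a library in each of 2 runs. The paper names library preparation, sequencing run or both as likely sources of its batch effect, and these cannot be told apart here. In the 8 acute mice the library of their own run differed from that of the shared run for 7 of 10 members, against 48.9% of genes. Pdia4 was lower in their own run, at -1.63 ± 0.15 on the log2 scale, as were Pdia3 at -1.0 ± 0.094, Hsp90b1 at -0.69 ± 0.050 and Canx at -0.45 ± 0.041, while Ddit3 was higher by 0.90 ± 0.076, Calr by 0.71 ± 0.037 and Atf4 by 0.36 ± 0.079, in the same animals. All 8 mice moved the same way for each of these 7 genes. For the second run the shift was called in 4 members in repeated mice (17.6% of genes) and in 5 in challenge mice (18.0%). Hspa5 was higher than in the shared run by 0.43 ± 0.043 and 0.53 ± 0.041. Calr shifted by -0.39 ± 0.038 in repeated and -0.07 ± 0.038 in challenge mice, and Pdia4 by -0.40 ± 0.13 and -0.67 ± 0.13. Whether these shifts differed between the experiences was not tested, so a difference between experiences within 1 run may also depend on the run.

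For Pdia4, Ddit3 and Calr the shift in acute mice was larger than the difference between challenge and acute mice of the shared run. When all DS mice were used with the libraries of each mouse summed over runs, Calr turned to -0.38 for repeated against acute and to -0.12 for challenge against acute, and Ddit3 to -0.09 for challenge against acute, so these directions were those of the shared run and not of that fit.

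**Figure D5:**
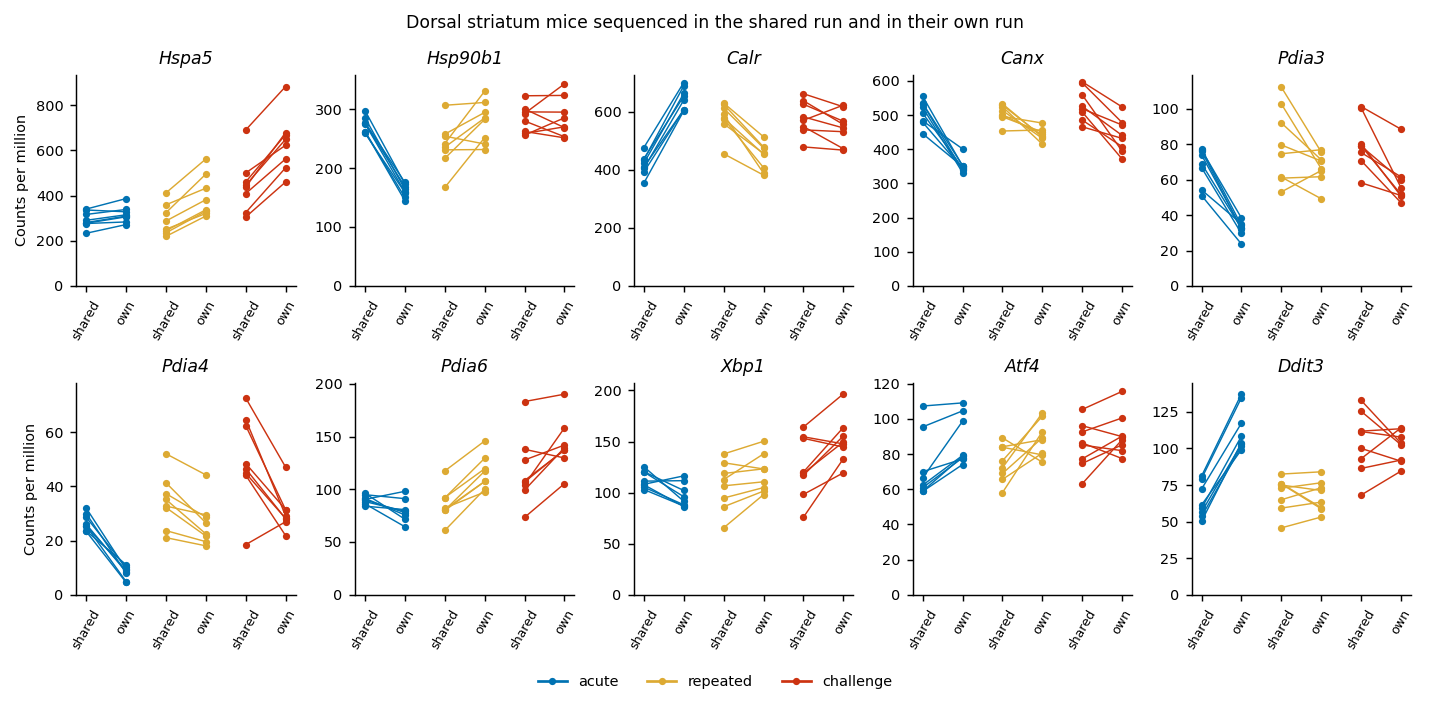
CPM of each member in the 24 DS mice that were sequenced in the shared run and again in the run of their own experience, with a line joining the libraries of 1 mouse. Pdia4 and Pdia3 fall and Calr and Ddit3 climb from the shared to the own run in all 8 acute mice.

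In NAc, LCtx, Amy and LH the challenge mice were sequenced apart from the acute and repeated mice, so run and experience cannot be told apart there. Over the members and these 4 structures the fitted challenge minus acute difference ran from 0.04 ± 0.065 (Ddit3 in LH) to 0.66 ± 0.066 (Pdia6 in NAc). It was 0.54 ± 0.082 in NAc, 0.57 ± 0.094 in LCtx, 0.30 ± 0.061 in Amy and 0.39 ± 0.056 in LH for Hspa5, and 0.66 ± 0.066, 0.55 ± 0.085, 0.23 ± 0.061 and 0.29 ± 0.057 for Pdia6. Hsp90b1, not called in the DS, differed by 0.55 ± 0.051 in NAc and 0.50 ± 0.060 in LCtx. In Amy and LH its difference was 0.23 ± 0.052 and 0.19 ± 0.056, under the fold limit. In the LCtx the summed blood cell markers were 8767 to 14792 CPM in every acute library and 482 to 1226 in challenge libraries, and in the NAc and LH the oligodendrocyte sums were lower in challenge mice with ranges apart, at 7051 to 8990 against 3784 to 6716 CPM and 17181 to 19854 against 12939 to 15532 CPM. In the Amy the neuron sums were higher in challenge mice with ranges apart, at 5121 to 5513 against 5567 to 6580 CPM. The striatal projection neuron sums there overlapped, at 1377 to 1992 against 861 to 1466 CPM. The part of these markers in the members' differences was not tested. In the DS mice with libraries in 2 runs, the shifts of the same genes were 0.19, 0.43 and 0.53 for Hspa5, -0.10, 0.42 and 0.32 for Pdia6 and -0.69, 0.21 and 0.03 for Hsp90b1, in acute, repeated and challenge mice.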

How the data were processed

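Libraries were 3′-RNA-seq of dissected mouse tissue, made from 100 ng of RNA with 8-base UMIs. Per the study's methods and the labels, the authors removed PCR duplicates by UMI, used STAR for alignment to GRCm38, and took gene counts from HTSeq. They left out shallow libraries and down-sampled the deepest to 50%. The deposited values are raw counts, whole numbers for 19363 genes in 194 libraries of 166 mouse-structure samples, 28 of them with a library in each of 2 runs. Totals of 1193306 to 10367769 counts set the precision. The annotation and the use of strand in counting are not given in the sources used here.

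Each group's samples came from the labels. Counts were fitted with edgeR 4.0.16 (TMM, quasi-likelihood F test, filterByExpr) in R 4.3.3, over all genes, with experience and time as terms for experiences, cell means for time courses, and structure, time and run for structures. The shift between runs was fitted within mouse. Calls needed an adjusted p below 0.05 and a fold over 1.2. The scripts were tested on simulated data. Alternatives were RLE scaling, DESeq2 1.42.0, no filter, the replicate number as a block, leaving out libraries, a fold of 1.5, summed libraries and, chosen after seeing the data, thinned libraries and a mouse block for pairs of structures and for LH against Amy. The members, gene lists and marker lists were chosen with earlier results of these data known. Other pathway genes were named by a fixed rule (the largest called changes of each comparison, up to 3 in each direction), except Hyou1, Dnajb11, Dnajb9, Dnajc3, Hsph1, Hspa8 and the second-run genes, which were named after their values were seen. Genes like the chaperones were ranked by Pearson's r of log2(CPM + 1) among genes with a mean of at least 10 CPM.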

Additional observations from a re-analysis of the deposited data

Results flagged for a closer look

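The 10 members in 21 groups of at least 4 mice gave 210 sets of values. Each set was screened for a mouse standing apart from the others (Dixon's test at the 95% level). Chance gives about 1 in 20 sets, and 10 sets held such a mouse, which is near that share. Of these, 6 were in the DS. Hspa5 stood at 921 CPM in a challenge mouse of 4 hr against 649 to 678 in the others. Pdia6 stood at 129 CPM in a repeated mouse of 0 hr against 106 to 108, and Atf4 at 60.9 CPM in a repeated mouse of 4 hr against 79.5 to 82.9. At 2 hr of challenge, 1 mouse was high in both Canx (484 CPM against 432 to 440) and Pdia3 (64.5 CPM against 51.1 to 51.8), and a different mouse was high in Ddit3 (114 CPM, the others at 104).

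In the NAc, Canx was 432 CPM in a naive acute mouse against 386 to 389. In the NAc of challenge mice Pdia4 was 8.48 CPM in 1 mouse of 2 hr against 22.3 to 22.7, and Hsp90b1 was 292 CPM in 1 of 4 hr against 215 to 224. In the Amy Hsp90b1 was 265 CPM in a challenge mouse of 4 hr against 213 to 219. By a test of the difference itself, none of the members had a time course that differed between experiences in the DS or a repeated minus acute change that differed between Amy and LH. No such test of time courses was run in the other structures.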

How the results depend on the processing

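The number of members called stayed within 1.5 times its reported value in 250 of 274 refits, and of 455 refitted changes of called members 408 kept their call, 44 lost it and 3 reversed. RLE scaling and DESeq2 moved no count of called members by that much. With a fold over 1.5, members called in the shared run were 0 (repeated against acute), 3 (challenge against acute) and 2 (challenge against repeated), 1 in the second run, 0 in the LH, 0 in each DS time course and 1 (Atf4) across structures; fewer genes then pass by construction. Genes called then went from 1599 to 340, 1998 to 535 and 454 to 103 in the shared run, from 1204 to 311 in the second run, from 1113 to 131 in the Amy, 583 to 86 in the LH, 339 to 180 and 62 to 41 in the acute and repeated DS courses and 9997 to 6099 across structures. Without the filter on low counts 2 members were called in the acute DS course (Ddit3 joined) and 1, Hspa5, in the challenge NAc course, where genes called went from 12 to 301, from 339 to 571 in the acute and 62 to 101 in the repeated DS course, and rose in the other courses of the NAc (24 to 63 and 6 to 31), LCtx (10 to 33) and Amy (11 to 35, 3 to 40 and 14 to 47); the cause was not tested. With all DS mice and summed libraries, which mixes runs, 6 members were called for repeated against acute, and 4 at 0 hr, and Calr went to -0.38 and -0.12 and Ddit3 to -0.094 (genes called 3561, 4479 and 1216 in place of 1599, 1998 and 454, and at 0 hr 1080 and 1749 in place of 229 and 428).

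Same-numbered libraries did not deviate together (median r 0.003 in the DS, with values down to -0.218), so the numbers do not pair mice. Repeated and challenge mice of the shared run share no number. With the replicate block, 0 members were called between them (33 genes in place of 454) and 2, Hspa5 and Pdia6, in the second run (146 in place of 1204), while challenge against acute kept 4 of its 5 (961 genes in place of 1998); genes called for repeated against acute were 1010 in place of 1599, and in the Amy courses 18, 13 and 26 in place of 11, 3 and 14. DESeq2 called 11 and 29 genes in the repeated and challenge NAc courses, in place of 6 and 12, and 7 in place of 11 in the acute Amy course. With run as a factor, 22 in place of 14 genes were called in the challenge Amy course. Leaving out single libraries gave 1 to 2 members for repeated against acute (2, with Hsp90b1, without the repeated 4 hr library of replicate 3), 5 to 7 for challenge against acute, and 3 to 5 for challenge against repeated in the shared run and in the second run. Leaving out 1 replicate number gave 0 to 1 in the repeated and challenge DS courses and 5 to 9 across structures. Depth limits Pdia4 most, which had as few as 30 counts a library in the shared run.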
